A study of Mus musculus with 6 samples.

Results

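The arginine, creatine and polyamine genes described here were 10 genes of mouse kidney, given by name: Gatm, Ass1, Asl, Arg1, Arg2, Nos2, Odc1, Sat1, Agmat and Ddah1. Each was found once, by its GENCODE symbol, among the 55450 genes of the count table, and all 10 were among the 16592 genes that passed a filter on low counts. Kidney mRNA of male, wild-type C57BL/6J mice, bought at 7 weeks of age and housed for 1 week, was sequenced from 3 mice of the day-0 group and 3 mice of the day-21 group, out of 6 mice per group in the study. The day-21 group received adenine at 0.16 g/kg together with potassium oxonate at 2.4 g/kg, once daily by oral gavage, a regimen used to raise uric acid and injure the kidney, while the day-0 mice were labelled as controls given 20% PEG and carried no other treatment. Whether the day-21 vehicle held PEG was not stated. Agent, vehicle, time and age therefore cannot be told apart in the comparison of day 21 with day 0.

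The kidney is the main source of circulating arginine. Proximal tubule cells take up citrulline and turn it into arginine through argininosuccinate synthase (Ass1) and argininosuccinate lyase (Asl), and part of that arginine is used by glycine amidinotransferase (Gatm) to make guanidinoacetate, the precursor of creatine. Arginine is also split by the arginases Arg1 and Arg2 into urea and ornithine, or used by nitric oxide synthases such as Nos2. Ornithine feeds proline synthesis and, through ornithine decarboxylase (Odc1), the polyamines putrescine, spermidine and spermine, which Sat1 acetylates for export or breakdown.

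On day 21 the enzymes that make arginine and guanidinoacetate were lower and both arginases were higher. Gatm fell by 2.64 on the log2 scale and Ass1 fell by 2.40, while Arg2 rose by 2.39. Odc1, the enzyme that opens polyamine synthesis, fell by 1.62. Of the 10 genes, 3 were differentially expressed genes (DEGs, adjusted p under 0.05 and fold over 1.5 in edgeR's quasi-likelihood test) with higher levels on day 21 (Arg1, Arg2 and Nos2) and 5 were DEGs with lower levels (Gatm, Ass1, Asl, Ddah1 and Odc1). Sat1 and Agmat were not DEGs. Arg1 entered the test through its day-21 counts alone, and without it 2 of the 9 genes left were called higher. Across all genes tested 35.1% were DEGs, 19.6% higher and 15.5% lower, and at any fold 45.6% passed the adjusted p, 23.9% higher and 21.7% lower, against 9 of the 10 genes (4 higher, Sat1 among them, and 5 lower). The groups did not overlap for 9 of the 10 genes, 4 higher and 5 lower, where 57.1% of all genes tested had no overlap, 30.7% higher and 26.4% lower. The median log2 fold change was -0.88 over the 10 genes and 0.03 over all genes tested.

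**Figure D1:**
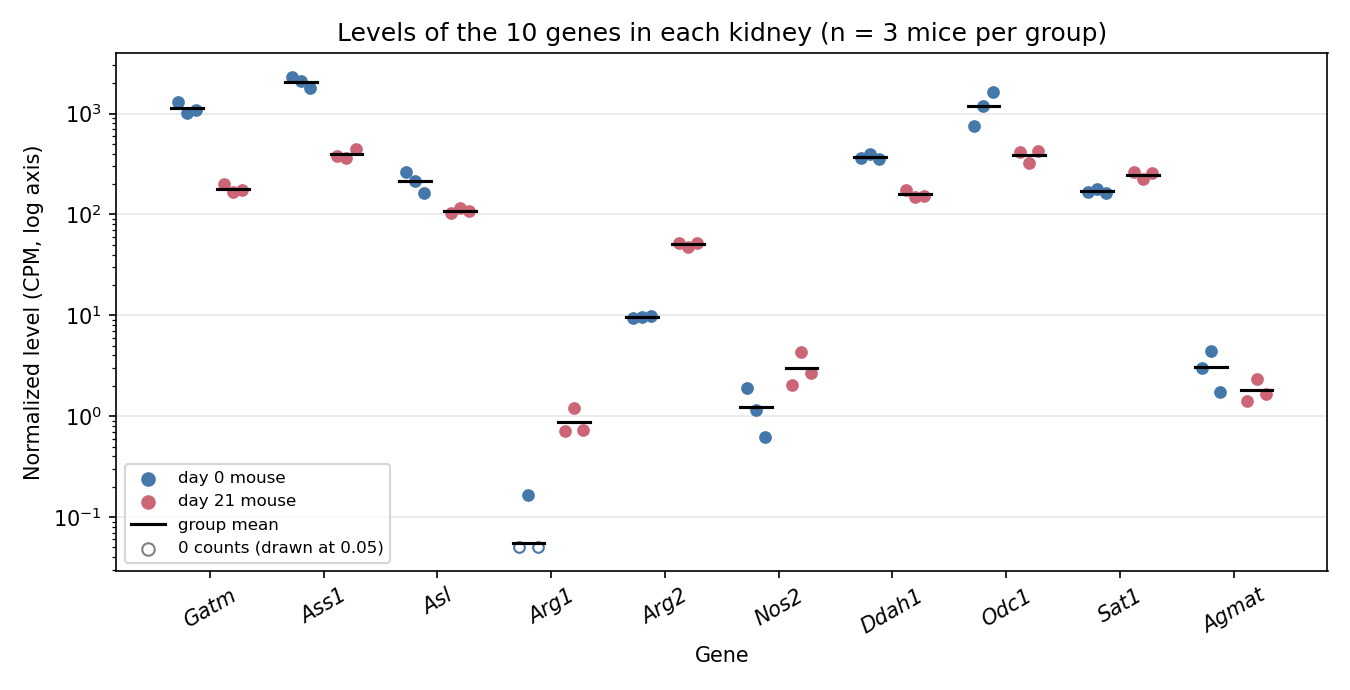
Normalized level of each of the 10 genes (CPM, log axis) in the 3 day-0 mice (blue) and the 3 day-21 mice (red), with black bars at the group means and open circles for mice with 0 counts, drawn at 0.05 CPM. Gatm, Ass1, Asl, Ddah1 and Odc1 sit lower in every day-21 mouse than in any day-0 mouse, Arg1, Arg2, Nos2 and Sat1 sit higher, and only the points of Agmat overlap.

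Total counts per mouse lay between 10963849 and 14333311, and the floor of detection was taken as 3 counts. Mitochondrially encoded genes held 9.39 to 9.86% of the counts on day 0 and 3.82 to 4.42% on day 21, and the 20 highest genes held 16.8 to 17.5% and 11.7 to 13.1%. Scaling the libraries by TMM gave 3249 DEGs with higher and 2572 with lower levels, whereas scaling by library size alone gave 5985 and 1338 which shifted the median over the tested genes from 0.03 to 0.42 on the log2 scale. With that scaling 4 of the 10 genes, Sat1 being the added one, were called higher and the same number as before, 5, were called lower. Levels are given as CPM, counts scaled to a common library total after TMM. The day-0 kidneys carried the markers of their tissue, since the summed level of 10 proximal tubule transcripts was 14610 to 16488 CPM.

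The promoters of 4 genes are shown because their genes encode an enzyme each of creatine synthesis (Gatm), arginine synthesis (Ass1), polyamine synthesis (Odc1) and polyamine acetylation (Sat1). The RefSeq table (GRCm38.p6) held windows for 6 of the 10 genes (Gatm, Ass1, Ddah1, Agmat, Odc1 and Sat1), and did not give one for Asl, Arg1, Arg2 or Nos2. Each window covers 250 bases before and 50 bases after the transcription start: Gatm at chr2:122611228-122611527 on the reverse strand, Ass1 at chr2:31470020-31470319 on the forward strand, Odc1 at chr12:17544623-17544922 on the forward strand and Sat1 at chrX:155216400-155216699 on the reverse strand. They are written in the direction of transcription, with matches to 4 promoter motifs in capitals.
Gatm: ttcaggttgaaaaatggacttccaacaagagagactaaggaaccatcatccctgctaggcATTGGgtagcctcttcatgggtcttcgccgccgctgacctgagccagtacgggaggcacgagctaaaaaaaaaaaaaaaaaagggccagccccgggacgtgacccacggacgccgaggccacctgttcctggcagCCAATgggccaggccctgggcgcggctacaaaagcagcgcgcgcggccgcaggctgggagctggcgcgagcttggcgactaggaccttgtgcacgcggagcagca
Ass1: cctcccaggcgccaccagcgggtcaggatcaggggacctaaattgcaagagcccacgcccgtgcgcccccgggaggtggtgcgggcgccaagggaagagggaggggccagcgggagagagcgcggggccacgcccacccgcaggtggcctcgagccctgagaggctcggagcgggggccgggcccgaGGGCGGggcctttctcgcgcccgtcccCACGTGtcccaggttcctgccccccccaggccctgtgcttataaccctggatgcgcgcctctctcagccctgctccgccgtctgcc
Odc1: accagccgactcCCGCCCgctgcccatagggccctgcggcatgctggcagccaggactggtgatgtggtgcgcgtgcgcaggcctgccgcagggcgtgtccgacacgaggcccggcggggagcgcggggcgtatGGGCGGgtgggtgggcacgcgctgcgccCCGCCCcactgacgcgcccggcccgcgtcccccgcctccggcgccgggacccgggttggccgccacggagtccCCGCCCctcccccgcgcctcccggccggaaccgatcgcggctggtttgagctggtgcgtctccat
Sat1: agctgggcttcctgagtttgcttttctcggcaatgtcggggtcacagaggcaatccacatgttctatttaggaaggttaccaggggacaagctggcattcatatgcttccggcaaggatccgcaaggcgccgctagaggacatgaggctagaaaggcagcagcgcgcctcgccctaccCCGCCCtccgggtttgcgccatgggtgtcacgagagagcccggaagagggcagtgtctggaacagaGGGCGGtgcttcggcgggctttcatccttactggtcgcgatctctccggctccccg

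The motifs searched on both strands were the GC box GGGCGG, the CCAAT box CCAAT, the E-box CACGTG (which reads the same on either strand) and the TATA box TATAAA. They do not overlap in these windows. Gatm held 2 CCAAT boxes and no GC box, Ass1 held 1 GC box and 1 E-box, Odc1 held 4 GC boxes and Sat1 held 2. None of the 4 windows held TATAAA. Of 32851 RefSeq windows of the same length, 35.7% held a GC box, 37.4% a CCAAT box, 7.2% the E-box and 13.6% the TATA box, so the GC and CCAAT boxes are common features. The 2 windows of Agmat held 1 GC box each and that of Ddah1 held none of the motifs. GC content was 60.7% in the Gatm window, 60.3% in Sat1, 74.0% in Ass1 and 78.0% in Odc1.

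The mRNAs of the 3 enzymes of creatine and arginine synthesis were each lower. Gatm (chr2:122594467-122611303, reverse strand) stood at 1289.7, 1019 and 1072 CPM in day-0 mice 1, 2 and 3 and at 201, 165 and 175 CPM in the day-21 mice. The groups lay far apart, and the highest day-21 kidney was well under the lowest day-0 kidney. The log2 fold change was -2.64 ± 0.14 (SE, n = 3 per group, edgeR adjusted p = 1.1e-06), a 6.25-fold lower level with a 95% interval of the log2 fold change from -2.95 to -2.33. Of all genes tested, 0.8% fell at least as far. In whole tissue, fewer cells of a type and less RNA per cell cannot be told apart, and this holds for each gene below.

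Ass1 (chr2:31470207-31520672, forward strand), which joins citrulline and aspartate, stood at 2325, 2107 and 1794 CPM on day 0 and at 376, 366 and 441 CPM on day 21. All 3 day-21 mice were below all day-0 mice, and the log2 fold change was -2.40 ± 0.14 (edgeR adjusted p = 1.9e-06). The longest Ass1 transcript shared 55.3% of its 50-base words with the pseudogene Gm5424, so the split of reads between them is uncertain. Gm5424 itself fell from 4270, 4764 and 3102 counts to 1014, 1551 and 1317 counts, a log2 fold change of -2.22, and reads assigned to either gene thus moved in the same direction.

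Asl (chr5:130011258-130029247, reverse strand) releases arginine from argininosuccinate. Its level was 264, 216 and 164 CPM on day 0 and 104, 116 and 107 CPM on day 21. The groups did not overlap and the log2 fold change was -0.98 ± 0.16 (edgeR adjusted p = 0.0007), a smaller fall than that of the enzyme before it. Within each mouse, the log2 ratio of Asl to Ass1 counts rose from -3.29 ± 0.16 (SD, n = 3) to -1.85 ± 0.19, a 2.72-fold shift. The 2 groups of ratios did not overlap (two-sided exact permutation p = 0.1, the smallest that 3 mice against 3 allow).

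The fall of these enzymes ran beside a fall of proximal tubule transcripts in general. All 10 of 10 proximal tubule markers were DEGs with lower levels, among them Lrp2 (log2 fold change -2.37) and Slc34a1 (-2.47), with a median of -1.99, and their summed level fell from between 14610 and 16488 CPM to between 3333 and 4395 CPM. None of these markers was at 0. Of the other nephron lists, 5 of 6 loop and distal markers and 3 of 4 podocyte markers were lower. The injured tubule markers Havcr1, Lcn2, Krt20 and Vcam1 were all higher, with a median log2 fold change of 5.35.

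Counts of each gene were therefore also set against the summed counts of the 10 proximal tubule markers in the same mouse, a comparison chosen after seeing the data. Gatm was lower still by 0.63 on the log2 scale and Ass1 by 0.39, without overlap between groups. For Ass1 the groups barely separated, with -3.145 in the lowest day-0 mouse and -3.186 in the highest day-21 mouse. Of the single markers, Slc34a1 (-2.47) and Slc7a13 (-3.79) fell further than Ass1, and the others, such as Slc27a2 (-1.37), fell less. A fall of Ass1 beyond that of proximal tubule transcripts is thus not shown. Slc7a13 also fell further than Gatm (-2.64), so the lower ratio of Gatm holds for the summed markers and not for each of them. Asl was higher relative to the markers by 1.06 and Ddah1 by 0.78, again without overlap. The ratio of Odc1 overlapped between groups (difference 0.45, exact permutation p = 0.3), while those of Agmat, Sat1 and Arg2 were higher by 1.31, 2.55 and 4.40. Apart from Odc1, each of these ratios reached the smallest possible exact permutation p of 0.1. For Sat1 and Arg2 that p follows from their own rise and the fall of the markers. Agmat itself was not called (-0.78, edgeR adjusted p = 0.138), and its higher ratio comes from the fall of the markers. The part of proximal tubule loss in the lower levels was not tested beyond these ratios.

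**Figure D2:**
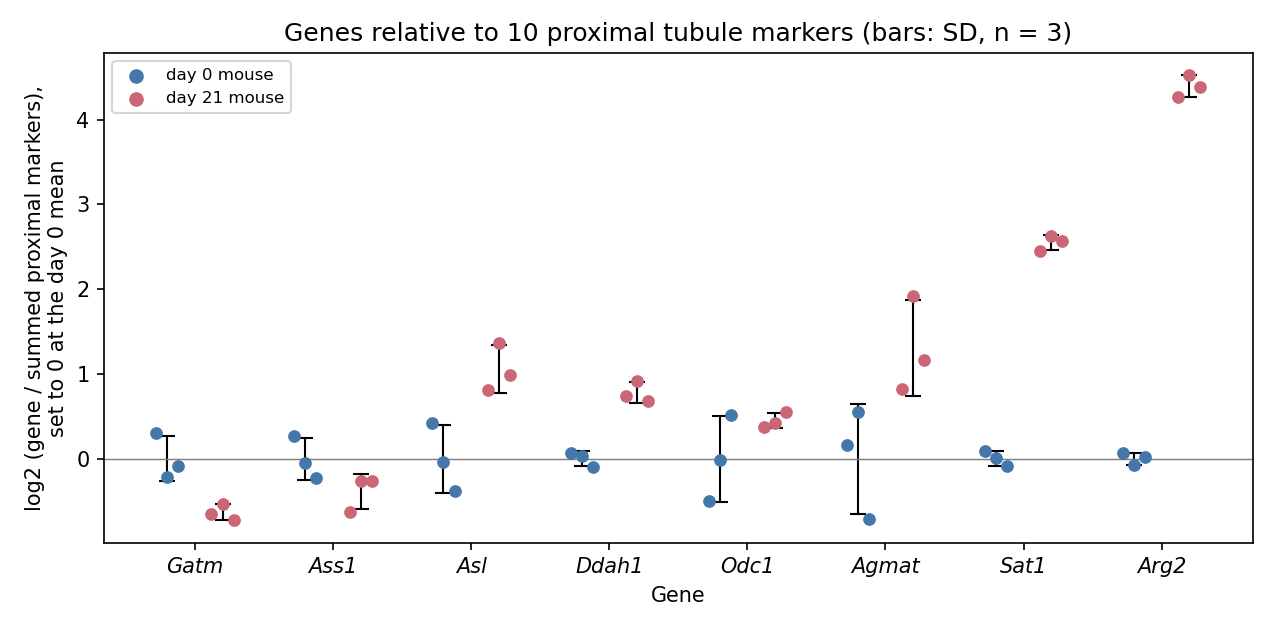
Log2 ratio of each of 8 genes to the summed counts of 10 proximal tubule markers in the same mouse, set to 0 at the day-0 mean, with points for the 3 mice of each group and bars for the SD. Gatm and Ass1 lie below 0 on day 21 (-0.63 and -0.39), Odc1 overlaps day 0, and Asl, Ddah1, Agmat, Sat1 and Arg2 lie above 0.

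The next enzymes of the creatine route were also lower. Of 7 creatine genes outside the 10, 5 were tested and 4 were DEGs, all lower, with a median log2 fold change of -0.69. Among all genes tested 15.5% were called lower. Gamt, which methylates guanidinoacetate to creatine, stood at 15.6, 19.9 and 14.5 CPM on day 0 and at 5.66, 5.85 and 7.90 CPM on day 21 (log2 fold change -1.37 ± 0.20, edgeR adjusted p = 0.00036). Gamt fell less than Gatm, and the within-mouse log2 ratio of Gamt to Gatm rose by 1.27, from -6.08 ± 0.36 to -4.81 ± 0.34 (SD, n = 3, exact permutation p = 0.1).

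The cytosolic creatine kinase Ckb fell by 0.83 on the log2 scale, the creatine exporter Slc16a12 by 0.69 and the creatine importer Slc6a8 by 0.62. These 3 calls were lost when libraries were scaled by library size alone, where the log2 fold changes were -0.43, -0.30 and -0.23. Slc6a8 also lost its call with upper quartile scaling (-0.53) and limma-voom (-0.58), without day-0 mouse 1 (-0.40), without day-21 mouse 2 (edgeR adjusted p = 0.0563) and without day-21 mouse 3 (edgeR adjusted p = 0.0756). The mitochondrial creatine kinase Ckmt1 was not called (-0.10, edgeR adjusted p = 0.68), and the muscle forms Ckm and Ckmt2 were not tested because of low counts.

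Among the genes that use arginine, both arginases were higher. Arg2 (chr12:79130777-79156301, forward strand), the mitochondrial arginase, stood at 9.43, 9.64 and 9.89 CPM on day 0 and at 52.6, 47.5 and 52.2 CPM on day 21. The mice of each group were close to each other and the groups were far apart. The log2 fold change was 2.39 ± 0.12 (edgeR adjusted p = 1.1e-06), a 5.26-fold higher level.

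Some of these reads could come from the opposite strand, since the strand setting of the counting was not given in the sources used here. Of the 1428 exon bases of Arg2, 401 (28.1%) lie in exons of Gm48780 or Vti1b on the other strand. Gm48780 rose from 34, 25 and 38 counts to 275, 269 and 306 counts (log2 fold change 2.54), whereas Vti1b did not pass the test (0.08, edgeR adjusted p = 0.578). Without strand, reads of Arg2 and Gm48780 cannot be told apart in the shared bases.

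Arg1 (chr10:24915221-24927484, reverse strand), the cytosolic arginase of the liver and of alternatively activated macrophages, was near the limit of detection. The day-0 mice held 0, 2 and 0 counts of it, and the day-21 mice held 10, 20 and 12. All 3 day-21 mice were above the floor and all 3 day-0 mice were below it, so that Arg1 passed the filter on low counts through the day-21 group alone. With the day-0 level set at the floor of 3 counts per library, the mean day-21 level of Arg1 was 3.07-fold higher. The edgeR adjusted p of 0.00553 belongs to the fitted log2 fold change of 3.64. Given how Arg1 passed the filter, that p is not taken as support. The hepatocyte markers Alb, Apoa2 and Cyp2e1 were lower, the last of these also being a kidney transcript. The cell source of the Arg1 reads was not tested.

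Nos2 (chr11:78920787-78960254, forward strand), the inducible nitric oxide synthase, was low throughout. Its level was 1.91, 1.15 and 0.618 CPM on day 0 and 2.05, 4.36 and 2.70 CPM on day 21. The lowest day-21 mouse (29 counts) lay only just above the highest day-0 mouse (19 counts), and 1 day-0 mouse did not reach the filter on its own. The log2 fold change of 1.31 ± 0.46 passed the test (edgeR adjusted p = 0.0397) but lost its call in 4 of 6 leave-one-out fits. The edgeR adjusted p was 0.102 without day-0 mouse 2, 0.105 without day-0 mouse 3, 0.17 without day-21 mouse 2 and 0.0726 without day-21 mouse 3.

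Macrophage transcripts rose with these 3 genes. Of 9 macrophage markers 8 were DEGs with higher levels (median log2 fold change 2.99), among them Lyz2, C1qa and C1qb, while Cd163 was not called. Their summed level was 94.96 to 136 CPM on day 0 and 817 to 1130 CPM on day 21, and none was at 0 in any mouse. Of the 4 neutrophil markers tested, S100a8 and S100a9 were lower and Csf3r was higher, and all 3 T cell markers tested were higher. The macrophage marker Msr1 (6, 5 and 4 counts on day 0) and the T cell marker Cd3d (6, 3 and 5) passed the filter through the day-21 group alone. Their calls are not taken as support. Relative to the summed macrophage counts, a comparison chosen after seeing the data, Arg2 was lower by 0.75 and Nos2 by 1.81 on the log2 scale without overlap (exact permutation p = 0.1 for each). No such ratio is given for Arg1, since its day-0 counts were under the floor. The part of macrophages in the higher levels was not tested beyond these ratios.

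The balance of the mRNAs of the arginine branches differed between the groups. The within-mouse log2 ratio of Arg2 to Gatm counts was -7.09, -6.72 and -6.75 on day 0 and -1.93, -1.80 and -1.75 on day 21. The difference of 5.03 is a 32.6-fold shift and ranged from 4.91 to 5.09 when any 1 mouse was left out. Oat, which turns ornithine into a precursor of proline and glutamate, did not pass the test (log2 fold change -0.11, edgeR adjusted p = 0.529), and the ratio of Oat to Arg2 counts fell by 2.48 on the log2 scale. Neither ratio overlapped between the groups (exact permutation p = 0.1 for each). For Arg2 to Gatm this follows from the opposite changes of the single genes and is no separate result. For Oat to Arg2 it follows from the rise of Arg2 and is no separate result either.

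**Figure D3:**
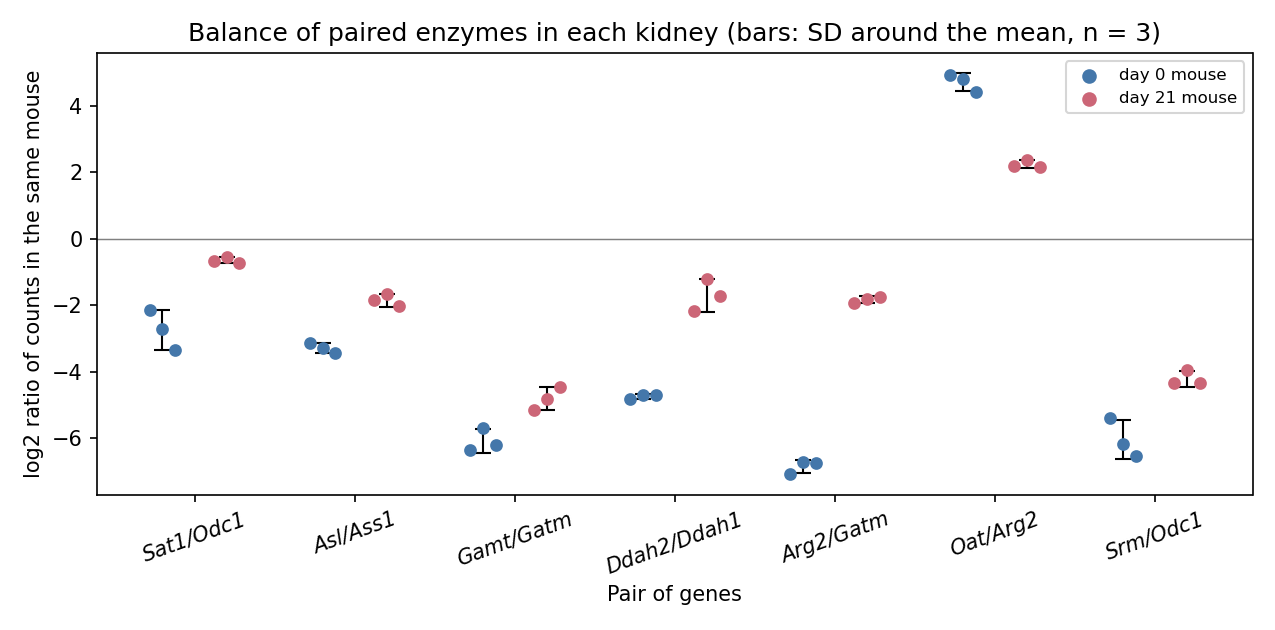
Log2 ratio of the counts of 2 genes in the same mouse for 7 pairs, with points for the 3 day-0 mice (blue) and the 3 day-21 mice (red) and bars for the SD around the mean. For no pair do the groups overlap, and the differences run from -2.48 for Oat to Arg2 up to 5.03 for Arg2 to Gatm. For Sat1 to Odc1, Ddah2 to Ddah1, Arg2 to Gatm and Srm to Odc1 this follows from the opposite changes of the single genes. For Oat to Arg2 it follows from the rise of Arg2.

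The enzymes of methylarginine breakdown moved in opposite directions. Ddah1 (chr3:145758675-145894277, forward strand), which hydrolyses asymmetric dimethylarginine, an inhibitor of nitric oxide synthases, stood at 363, 398 and 351 CPM on day 0 and at 174, 149 and 152 CPM on day 21. Every day-21 mouse was below every day-0 mouse, with a log2 fold change of -1.23 ± 0.11 (edgeR adjusted p = 1.8e-05). Its paralog Ddah2 rose from 12.8, 15.2 and 13.5 CPM to 38.4, 65.0 and 45.9 CPM (log2 fold change 1.84 ± 0.20, edgeR adjusted p = 4.2e-05). The within-mouse log2 ratio of Ddah2 to Ddah1 counts rose from -4.74 ± 0.07 to -1.70 ± 0.49 (SD, n = 3), an 8.21-fold shift without overlap (exact permutation p = 0.1). That lack of overlap follows from the opposite changes of Ddah1 and Ddah2. Agxt2, a mitochondrial aminotransferase that also metabolises dimethylarginines, fell by 1.70 (edgeR adjusted p = 9.2e-06).

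Of the 18 nitric oxide and methylarginine genes outside the 10, 6 were higher, 3 were lower and 9 were not called, with a median log2 fold change of 0.07. The shares over all genes tested were 19.6% higher and 15.5% lower. The genes for both subunits of the nitric oxide receptor guanylate cyclase were called higher, Gucy1a1 at 1.94 and Gucy1b1 at 0.87 on the log2 scale. The groups of Gucy1b1 overlapped, and its call was lost without day-0 mouse 2 (edgeR adjusted p = 0.097), day-21 mouse 1 (edgeR adjusted p = 0.113) or day-21 mouse 3 (edgeR adjusted p = 0.0937) and with limma-voom (adjusted p = 0.0657). The arginine methyltransferases Prmt1 and Prmt2 were higher by 0.89 and 0.87, while Prmt3, Prmt5, Prmt6, Prmt7, Prmt9 and Carm1 were not called.

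In tetrahydrobiopterin supply, which nitric oxide synthases need as a cofactor, the enzymes did not move together. Gch1, the first enzyme of synthesis, rose by 1.31 (edgeR adjusted p = 0.00561), Spr, the last one, fell by 0.76 (edgeR adjusted p = 0.00026) and the recycling enzyme Qdpr fell by 1.30 (edgeR adjusted p = 1.9e-05). The call of Spr was lost with scaling by library size alone (-0.37). Pts, the enzyme between Gch1 and Spr, was not called at -0.52 (edgeR adjusted p = 0.00891), but was called lower without day-0 mouse 3 (-0.60) or day-21 mouse 2 (-0.63). Neither of the other nitric oxide synthases was called, with log2 fold changes of 0.11 for the endothelial Nos3 (edgeR adjusted p = 0.702) and -0.70 for the neuronal Nos1 (edgeR adjusted p = 0.179).

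Of the 3 polyamine genes among the 10, Odc1 was lower and the other two were not DEGs. Odc1 (chr12:17544794-17551505, forward strand) stood at 748, 1184 and 1642 CPM on day 0 and at 412, 324 and 426 CPM on day 21. The day-0 mice were spread widely, but the lowest of them still lay above every day-21 mouse. The log2 fold change was -1.62 ± 0.25 (edgeR adjusted p = 0.00042), a 3.08-fold lower level. The day-0 mouse with the lowest Odc1, mouse 1, also held 16.0 CPM of the injured tubule marker Krt20 against 0.247 and 0.515 CPM in mice 2 and 3. Its other markers of that list were higher by less: Havcr1 8.12 against 2.225 and 1.55 CPM, Vcam1 29.2 against 18.6 and 16.0, and Lcn2 7.52 against 6.76 and 5.46. Whether this bears on Odc1 was not tested. Without day-0 mouse 1 the log2 fold change of Odc1 was -1.89 (edgeR adjusted p = 1.33e-05).

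Of the 50-base words of the longest Odc1 transcript, 42.2% recur in 15 other genes. Those 15 genes together went from 158, 281 and 315 counts to 134, 97 and 170 counts, against 7460 to 15928 and 5430 to 6957 counts for Odc1 itself. The reads placed on the copies were few beside those placed on Odc1.

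Sat1 (chrX:155213132-155216449, reverse strand), the spermidine and spermine acetyltransferase, stood at 168, 179 and 161 CPM on day 0 and at 260, 223 and 258 CPM on day 21. The groups did not overlap. The log2 fold change was 0.54 ± 0.11 (edgeR adjusted p = 0.00249, 95% interval 0.30 to 0.79), and the fold of 1.46 was just under the limit of 1.5 for a DEG. The call was made with upper quartile scaling (0.63), with library size alone (0.93) and without day-21 mouse 2 (0.62).

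Within each mouse, the log2 ratio of Sat1 to Odc1 counts was -2.16, -2.73 and -3.35 on day 0 and -0.66, -0.54 and -0.72 on day 21. All 3 day-21 mice were above all day-0 mice, by 2.10 on average, which is 4.29-fold (exact permutation p = 0.1). That separation follows from the opposite moves of Sat1 and Odc1, each without overlap.

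Agmat (chr4:141746672-141759263, forward strand), named for the hydrolysis of agmatine to putrescine, was low in all kidneys. It stood at 3.01, 4.45 and 1.75 CPM on day 0 and at 1.41, 2.33 and 1.65 CPM on day 21, and the groups overlapped. The log2 fold change was -0.78 with a 95% interval from -1.66 to 0.11 (edgeR adjusted p = 0.138, exact permutation p = 0.2), so a change was not detectable at 17 to 54 counts per mouse. Without day-0 mouse 3, the lowest of its group, it was -1.07 (edgeR adjusted p = 0.0419).

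Further along the polyamine route, Aoc1 and Smox were higher, Sms was lower and Srm was not called. Of 18 polyamine genes outside the 10, 5 were higher, 4 were lower and 9 were not called (median log2 fold change 0.04). These counts stand beside 19.6% higher and 15.5% lower over all genes tested. Without day-21 mouse 2 the higher calls of the list were 3. Aoc1, the diamine oxidase that degrades putrescine and histamine, rose from 7.62, 3.30 and 4.95 CPM to 210, 316 and 231 CPM (log2 fold change 5.59 ± 0.28, edgeR adjusted p = 9.9e-07), a 48.2-fold higher level. The spermine oxidase Smox rose from between 6.35 and 9.48 CPM to between 22.6 and 31.3 CPM (1.75 ± 0.19, edgeR adjusted p = 4.9e-05). Paox, which oxidises acetylated polyamines, was not called at 0.55 (edgeR adjusted p = 0.0389), but was called higher with upper quartile scaling (0.64), with library size alone (0.94) and without day-0 mouse 1 (0.68).

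Spermine synthase (Sms) fell by 0.83 on the log2 scale, from 32.4 to 34.4 CPM down to 17.4 to 19.8 CPM (edgeR adjusted p = 0.00032). Spermidine synthase (Srm) was not called (0.26, edgeR adjusted p = 0.118), although its 3 day-21 mice (20.1 to 20.9 CPM) lay above its day-0 mice (16.5 to 17.6 CPM) and it was called higher with library size alone (0.65). Relative to Odc1 in the same mouse, Srm counts rose by 1.82 on the log2 scale, a 3.53-fold shift (exact permutation p = 0.1). That p follows from the opposite moves of Srm and Odc1, each without overlap. Amd1, which supplies the aminopropyl donor, averaged 67.5 CPM on day 0 and 68.4 CPM on day 21 (edgeR adjusted p = 0.935).

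The regulators of Odc1 protein and the polyamine transporters split as well. The antizyme inhibitor Azin2 rose by 1.04 and Azin1 fell by 0.72, while the antizymes Oaz1 and Oaz2 passed the adjusted p (0.00754 and 0.011 in edgeR) at log2 fold changes of -0.54 and -0.40, under the limit of fold. Oaz1 was called lower without day-0 mouse 1 (-0.61) or day-0 mouse 3 (-0.65). The lysosomal polyamine exporter Atp13a2 rose by 0.71 and the related Atp13a3 fell by 0.70. Mtap, which salvages the by-product of polyamine synthesis, rose by 0.65, and the acetyltransferase Sat2 fell by 0.59.

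Several of these smaller changes depended on the setting. Scaling by library size alone ended the calls of Sms (-0.44), Azin1 (-0.34), Atp13a3 (-0.31) and Sat2 (-0.20). Azin1 lost its call without day-0 mouse 1 (-0.54), Mtap without day-0 mouse 1 (0.58) or day-21 mouse 2 (0.57), and Atp13a2 without day-21 mouse 2 (0.56). Sat2 also lost its call with upper quartile scaling (-0.51), without a filter (edgeR adjusted p = 0.0511) and with a minimum mean of 50 counts (edgeR adjusted p = 0.051). It did so in 4 of 6 leave-one-out fits, with edgeR adjusted p of 0.0509 without day-0 mouse 1, 0.133 without day-0 mouse 2, 0.138 without day-21 mouse 2 and 0.136 without day-21 mouse 3.

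**Figure D4:**
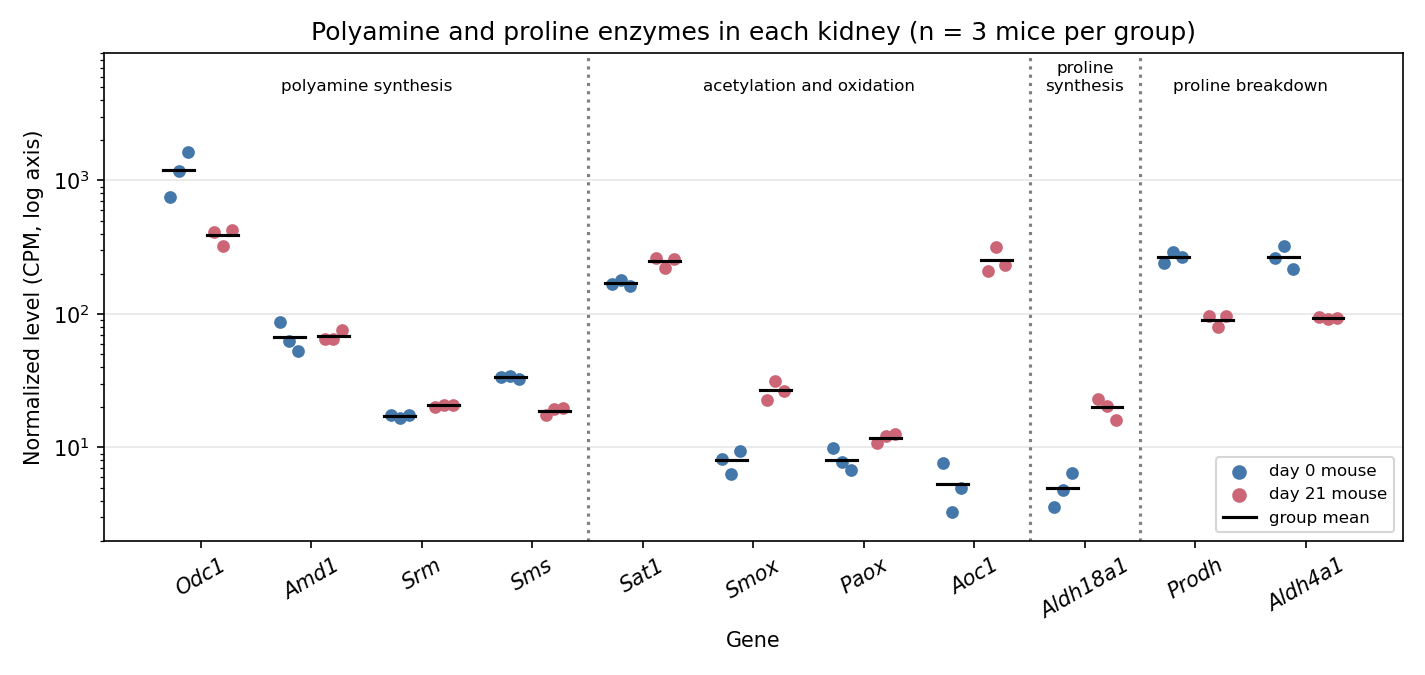
Normalized level (CPM, log axis) of 8 polyamine and 3 proline enzymes in the 3 day-0 mice (blue) and the 3 day-21 mice (red), with black bars at the group means. Odc1 is lower and Smox and Aoc1 are higher in every day-21 mouse, Amd1 overlaps, and of the proline enzymes Aldh18a1 is higher and Prodh and Aldh4a1 are lower.

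Aldh18a1, a gene of proline synthesis, was higher, and the proline breakdown genes Prodh and Aldh4a1 were lower. Of 10 urea cycle, ornithine and proline genes outside the 10, 7 were tested, of which 2 were higher and 3 lower (median log2 fold change -0.32). For all genes tested the shares were 19.6% higher and 15.5% lower. The higher calls of the list came down to 1 without day-0 mouse 1 or 3 or without any 1 of the day-21 mice. Aldh18a1, which starts proline synthesis from glutamate, stood at 3.61, 4.78 and 6.49 CPM on day 0 and at 23.2, 20.6 and 16.0 CPM on day 21, a log2 fold change of 2.01 ± 0.23 (edgeR adjusted p = 7.6e-05).

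The enzymes that degrade proline were lower. Prodh stood at 242, 291 and 266 CPM on day 0 and at 96.4, 80.1 and 96.0 CPM on day 21 (log2 fold change -1.55 ± 0.12, edgeR adjusted p = 7.7e-06), and Aldh4a1 fell by 1.52 (edgeR adjusted p = 2.4e-05). The mitochondrial ornithine carrier Slc25a15 fell by 1.08 (edgeR adjusted p = 8.1e-05). The remaining higher call, the proline synthesis reductase Pycr1 (1.56, edgeR adjusted p = 0.0452), rested on a mean of 11.5 counts and was lost with DESeq2 (adjusted p = 0.0838), without a filter (edgeR adjusted p = 0.0645) and in 5 of 6 leave-one-out fits, at edgeR adjusted p of 0.143 and 0.138 without day-0 mouse 1 or 3 and of 0.146, 0.0836 and 0.0791 without day-21 mouse 1, 2 or 3.

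The liver-type steps of the urea cycle were not seen. Cps1 and Otc had 0 counts in all 6 mice, where a count of 0 allows up to 3 counts per library, or 0.209 to 0.274 CPM of the unscaled library total. Nags was too low to be tested.

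Among cationic amino acid transporters, those known from the proximal tubule were lower. Of 7 genes, 2 were higher and 4 lower, with a median log2 fold change of -0.71, against 19.6% higher and 15.5% lower over all genes tested. Slc3a1 and Slc7a9, which form the apical system for cystine and dibasic amino acids in the proximal tubule, fell by 1.30 and 0.90, and Slc7a7 and Slc3a2, of the basolateral exporter, fell by 1.02 and 0.71. Slc7a2, an arginine carrier of macrophages and other cells, rose from 8.42, 5.69 and 7.11 CPM to 26.7, 22.8 and 27.5 CPM (log2 fold change 1.87 ± 0.18, edgeR adjusted p = 2.1e-05). Slc7a6 rose by 0.99 (edgeR adjusted p = 0.00087), and the widely expressed carrier Slc7a1 was called higher with library size alone (0.70) but not with TMM (0.32, edgeR adjusted p = 0.114). With library size alone Slc7a9 (-0.51) and Slc3a2 (-0.32) lost their calls, and Slc3a2 did so without day-0 mouse 1 (-0.55).

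Over all 60 genes of these lists, 55 were tested, of which 15 were higher and 18 lower, and the groups did not overlap for 39. Their median log2 fold change was -0.07. Over all genes tested 19.6% were higher and 15.5% lower, and the groups did not overlap for 57.1%. The 15 higher calls include Pycr1, which passed the filter through the day-21 group alone. With scaling by library size alone 18 genes of the lists were called higher and 8 lower. The lists were chosen with earlier results of these data known and were not compared with other lists.

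**Figure D5:**
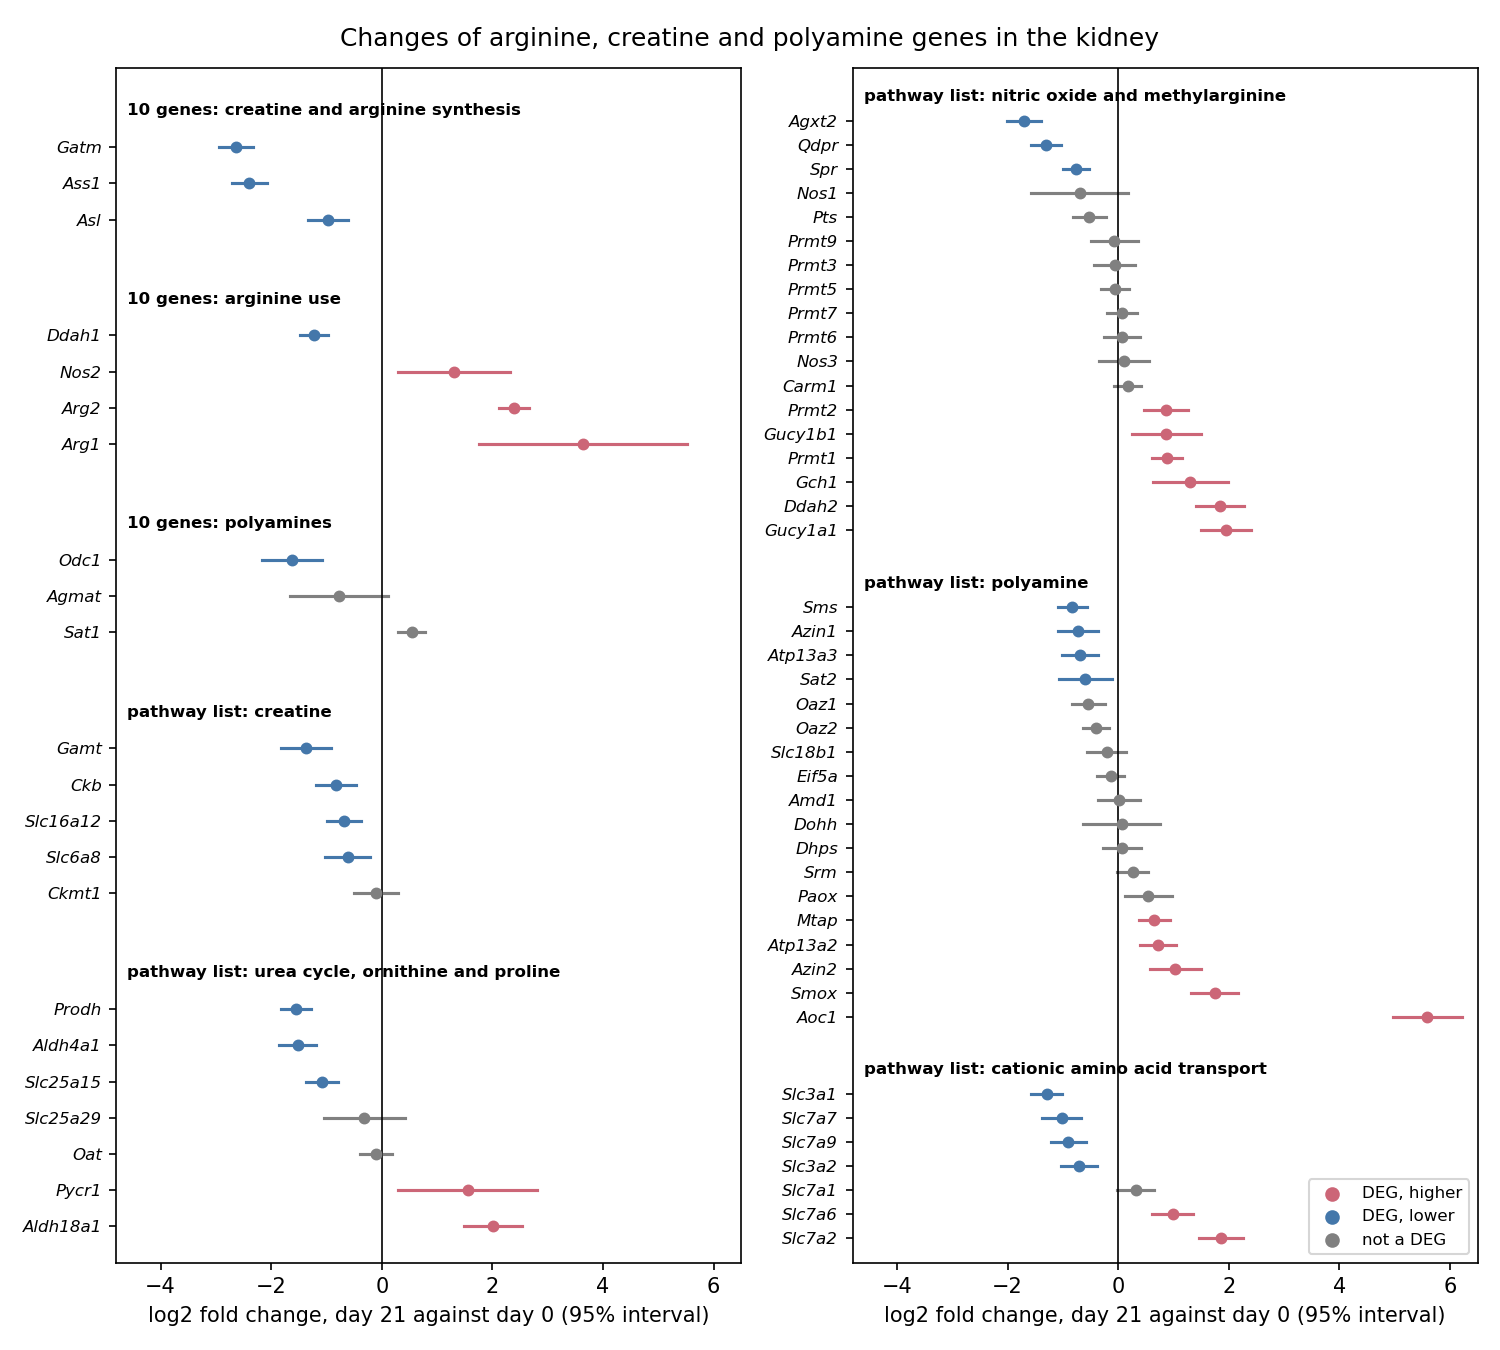
Log2 fold change, day 21 against day 0, with its 95% interval, for the 10 genes and the 55 tested genes of the wider lists, grouped by pathway, with DEGs in red (higher) and blue (lower) and other genes in grey. Gatm, Ass1 and Asl and the 4 called creatine genes lie left of 0, while Arg1, Arg2, Nos2, Ddah2, Smox and Aoc1 lie right of it, with Aoc1 at 5.59.

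Per kilobase of exon, the order of the 10 genes changed between the groups. On day 0, Ass1 had the highest level (860 RPKM, the CPM divided by the kilobases of exon), followed by Gatm (376 RPKM) and Odc1 (350 RPKM), whose mice overlapped. Ddah1 (93.1 RPKM), Sat1 (61.0 RPKM) and Asl (44.5 RPKM) came next, followed by Arg2 at 6.76 RPKM and Agmat at 2.18 RPKM, with Nos2 and Arg1 under 1. On day 21, Ass1 was again the highest (163 RPKM) and was followed by Odc1 (114 RPKM), Sat1 (89.1 RPKM), Gatm (60.1 RPKM), Ddah1 (39.7 RPKM), Arg2 (35.6 RPKM) and Asl (22.6 RPKM). Neighbours in the day-21 order did not overlap, except for Nos2 (0.688 RPKM) and Arg1 (0.394 RPKM). By RPKM Arg2 moved from below Asl to above it, and Sat1 from below Gatm to above it. This order depends on the exon length used. The union of exons is 4831 bases for Asl, whose longest transcript has 2413, and 1428 bases for Arg2, the same as its longest transcript. In CPM Asl stayed above Arg2 on day 21 (means of 109 and 50.8), so their crossing is not shown apart from that length. Sat1 was above Gatm on day 21 in CPM too (247 and 180).

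The genes whose profile over the 6 mice was nearest to that of 4 of the 10 were found by the root mean square difference of log2 CPM, centred on the day-0 mean, among 11888 protein-coding genes. For Gatm they were Idi1 (0.11) and Cyp51 (0.11), both enzymes of sterol synthesis, and Spp2 (0.18), against a median of 1.89 over all genes. For Odc1 they were Vwa1 (0.11), Klf15 (0.11) and Gpt (0.15, median 1.19). Arg2 lay nearest to Obsl1 (0.10), the leukocyte myosin Myo1f (0.11) and Psd4 (0.12, median 1.68), and Sat1 to Nup85, Chmp4b and Pmp22 (0.04 to 0.06, median 0.51). These distances describe 6 mice and were not tested.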

How the data were processed

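Kidney mRNA of 3 mice on day 0 and 3 mice on day 21 was measured by paired-end sequencing. The authors aligned the reads (TopHat and mm10 per the submitters' processing notes) and deposited raw counts per gene for each mouse, without normalization. The counting program and its strand setting are not given in the sources used here. The labels give each replicate its own number and code, and p-values measure the spread between these mice.

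All 55450 identifiers matched GENCODE release 21 (GRCm38), and 28536 genes had no count. Counts were filtered with filterByExpr (minimum count 10, minimum total 15), scaled by TMM and compared with edgeR 4.0.16 (R 4.3.3) by the quasi-likelihood test, and p-values of the 16592 genes tested were adjusted by Benjamini-Hochberg (8786 genes had an unadjusted p under 0.05). The paper's bioinformatics methods give the DEG threshold and name no test for counts. Within-mouse ratios (0.5 added to each count) were compared by a two-sided exact permutation test over mice, and the adjusted p over the 7 ratios was 0.1 for each. RPKM used the union of exons. Floors of 3 counts cover counting error only. No 2 mice of a group were duplicates (chi-square per gene 7.17 to 25.7).

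The 10 genes and all lists were chosen with earlier results of these data known. The text names the 10 genes, the genes of the ratios, up to 4 DEGs in each direction of each pathway list (mean of at least 50 counts), up to 3 genes of each marker list and the 3 nearest profiles. Pycr1, Mtap, Gucy1b1, Prmt2 and the genes of these lists that were not called were named after their values were seen, and so were further markers beyond 3 in a list. Ratios to cell type markers were added after seeing the data. Alternatives were other scalings, filters, tools (DESeq2 1.42.0, limma 3.58.1), thresholds and library totals, a replicate block and leaving out each mouse. Each of these tools was tested on simulated data. Days 7 and 14 and the protein data were not analysed here, and 1 further gene was taken out of the wider lists and is not reported here. Endothelial markers (1 of 5 lower), fibroblast markers (5 of 5 higher) and red cell markers (2 of 2 tested lower) were counted in the same fit.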

Additional observations from a re-analysis of the deposited data

How the results depend on the processing

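Over the 10 genes, 149 of 157 values from alternative fits kept their direction and their side of the threshold. The 8 others concerned Nos2 (4 leave-one-out fits), Sat1 and Agmat, and are given with those genes. Scaling by library size alone gave 5985 DEGs with higher and 1338 with lower levels and 8 lower wider pathway genes, and limits of 0.01 for the adjusted p and 2 for the fold gave 1918, 1254 and, in the wider lists, 8 higher and 8 lower. Among the 10 genes the limits of 0.01 and 2 gave 2 higher and 4 lower calls, with Nos2 and Asl losing theirs. A mean of at least 50 counts left 1 higher call among the 10 genes, since Arg1 and Nos2 were then not tested. Leaving out each mouse gave 2 to 3 higher and 5 to 6 lower calls among the 10.

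The numbers of the mice were shared by both groups only as numbers, since the correlations of same-numbered mice were -0.02, 0.17 and 0.09. With a replicate block the counts of DEGs were 3235 and 2523, those of the 10 genes 3 and 5, and those of the wider lists 14 and 16 (Slc6a8, Pycr1 and Sat2 lost their calls). For the ratios, pairing the mice by number cannot change the mean difference. As 3 pairs allow no exact permutation p under 0.25, pairing was no separate check of them. Ratios kept their direction in every leave-one-out.

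No gene that changed sign was called in the main comparison. With library size alone the log2 fold change was 0.30 for Ckmt1, 0.082 for Slc25a29, 0.28 for Oat, 0.32 for Prmt3, 0.33 for Prmt5, 0.32 for Prmt9, 0.25 for Eif5a and 0.18 for Slc18b1. With upper quartile scaling it was 0.020 for Prmt3, 0.028 for Prmt5 and 0.023 for Prmt9, and with RLE or DESeq2 it was -0.012 for Amd1. Leave-one-out fits gave -0.32 to 0.055 for Ckmt1, -0.56 to 0.10 for Slc25a29, -0.022 to 0.29 for Nos3, -0.21 to 0.031 for Prmt3, -0.14 to 0.041 for Prmt5, -0.033 to 0.16 for Prmt6, -0.23 to 0.082 for Prmt9, -0.15 to 0.23 for Amd1, -0.030 to 0.22 for Dhps and -0.16 to 0.24 for Dohh. The cause was not tested. Depth limits Arg1, Nos2 and Agmat, with at most 73 counts in any mouse.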
